A study of Mus musculus with 4 samples.

Results

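The inhibitors of cyclin-dependent kinases and the D cyclins were measured by 16 probes for 10 genes, out of 29924 gene names and 39429 probes for transcripts on the array. The members were the probes whose gene name in the scanner files was Cdkn1a, Cdkn1b, Cdkn1c, Cdkn2a, Cdkn2b, Cdkn2c, Cdkn2d, Ccnd1, Ccnd2 or Ccnd3. A single probe stood for 5 of the genes, 4 genes had 2 probes, and Cdkn1a had 3. The cells were primary kidney tubular cells cultured in a renal growth medium. There were 2 samples from SerpinB2-/- mice and 2 from wild type mice, each on its own one-colour array. All mice were male, 8 weeks old and of B6.J background, and all 4 samples came from cells that had received 100 ng/ml of PMA, a phorbol ester and activator of protein kinase C. No untreated cells were compared. No label gives the deleted stretch of Serpinb2, or says that the samples came from separate animals or cultures. The spread behind the p-values below is that between these samples alone, which may be technical. The series title names kidney injury and renal ageing as its subject.

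Cyclin D1, D2 and D3 bind the kinases CDK4 and CDK6 and carry cells through the first gap phase of the cell cycle by phosphorylating the retinoblastoma protein. The Ink4 inhibitors, p16 (Cdkn2a), p15 (Cdkn2b), p18 (Cdkn2c) and p19 (Cdkn2d), bind CDK4 and CDK6 and displace the D cyclins, and p16 and p15 accumulate in ageing tissue and senescent cells. The Cip/Kip inhibitors, p21 (Cdkn1a), p27 (Cdkn1b) and p57 (Cdkn1c), act on CDK2 complexes as well, and p21 is a transcriptional target of p53 that rises in injured kidney tubules.

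The probes of Cdkn1a gave changes of different size, so their sequences are shown with their positions in build mm9, which the files use. The 5′-most probe (A_55_P1986282, chr17:29227986-29228045, plus strand) is annotated to transcript variant 2 alone. The middle probe (A_55_P1976204, chr17:29235299-29235358) is annotated to an Ensembl transcript and to neither of the RefSeq variants. The 3′-most probe (A_51_P363947, chr17:29237377-29237436) is annotated to variants 1 and 2. The first 30 of the 60 bases of each probe are:
Cdkn1a 5′-most probe: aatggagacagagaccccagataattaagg
Cdkn1a middle probe: tggggtagtttccatagtgacccgggtcct
Cdkn1a 3′-most probe: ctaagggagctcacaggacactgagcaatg

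RefSeq promoter windows, 250 bases before to 50 after a listed start in build GRCm38.p6, were matched for 7 of the 10 members, with 11 windows in all. Cdkn1a had 2 listed starts 2790 bases apart, on the plus strand, and both windows are printed because a probe of the gene is annotated to 1 variant alone. The capitals mark the pair of p53 core motifs CATGNNNNNNCATG in the first window (chr17:29090729-29091028) and the GC box GGGCGG in the second (chr17:29093519-29093818).
Cdkn1a upstream start: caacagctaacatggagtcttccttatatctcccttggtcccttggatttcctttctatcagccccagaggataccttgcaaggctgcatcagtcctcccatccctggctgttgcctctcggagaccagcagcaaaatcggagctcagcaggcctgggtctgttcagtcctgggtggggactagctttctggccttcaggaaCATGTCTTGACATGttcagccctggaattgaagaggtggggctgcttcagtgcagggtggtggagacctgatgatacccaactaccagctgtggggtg
Cdkn1a downstream start: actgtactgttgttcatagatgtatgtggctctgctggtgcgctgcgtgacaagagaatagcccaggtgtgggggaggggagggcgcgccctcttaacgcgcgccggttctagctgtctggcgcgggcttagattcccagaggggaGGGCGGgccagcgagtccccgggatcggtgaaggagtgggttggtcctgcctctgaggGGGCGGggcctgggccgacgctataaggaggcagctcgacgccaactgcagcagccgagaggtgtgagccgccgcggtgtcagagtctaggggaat
The p53 pair lay at position -48 from the upstream start and in 0.712% of 32851 windows of this length, searched on both strands. Cdkn2b and Cdkn2d, both Ink4 genes on minus strands, are shown because they moved in opposite directions. Capitals in the Cdkn2b window (chr4:89310983-89311282) mark the cAMP response element TGACGTCA, the cell cycle homology region TTTGAA on the opposite strand, and 1 GC box. In the Cdkn2d window (chr9:21291160-21291459) they mark 5 GC boxes.
Cdkn2b: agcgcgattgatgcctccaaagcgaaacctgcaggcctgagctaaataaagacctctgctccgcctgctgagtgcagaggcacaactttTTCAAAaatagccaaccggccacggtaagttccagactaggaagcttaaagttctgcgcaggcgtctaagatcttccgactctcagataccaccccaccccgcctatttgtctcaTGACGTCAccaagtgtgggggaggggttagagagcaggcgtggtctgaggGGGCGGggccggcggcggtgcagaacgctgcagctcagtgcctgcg
Cdkn2d: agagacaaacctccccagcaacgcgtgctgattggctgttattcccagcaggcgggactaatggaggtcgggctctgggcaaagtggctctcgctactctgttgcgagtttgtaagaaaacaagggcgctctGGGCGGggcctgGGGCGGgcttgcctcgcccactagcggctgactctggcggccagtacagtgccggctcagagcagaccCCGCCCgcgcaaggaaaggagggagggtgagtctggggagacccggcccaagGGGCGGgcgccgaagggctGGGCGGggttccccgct
Among all windows 1.79% held the cAMP element, 17.9% the homology region and 35.7% a GC box on either strand. The TPA response element TGANTCA, named for PMA under its other abbreviation, was found in 0 of the 11 windows of the members and in 7.81% of all windows. The E2F motif TTTNGCGC matched in 1 Cdkn2a window, at position -244 (1.38% of all windows), and the FOXO motif GTAAACA in 1 Ccnd3 window, at position -243 (3.65%). None of the matches in the printed windows overlap, and they are descriptions of letters, not binding sites.

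The targeted gene was checked first. Serpinb2, at chr1:109422046-109422105 (mm9), had normalised signals of 5.50 and 7.57 in SerpinB2-/- cells, against 3209 and 3276 in wild type cells. It was not well above background on either SerpinB2-/- array, so it entered the fit through wild type alone, and was at least 123-fold lower in SerpinB2-/- cells. The fit to the signals themselves gave a log2 change of -8.97 (limma, adjusted p = 0.000888 after Benjamini-Hochberg correction). A normalised signal is the scanner's processed signal scaled so that all arrays share their 75th percentile, which lay between 1903 and 2144 units as deposited. The number of probes detected above background was 23404 to 24471 per array, with no saturated probe. Arrays of the same genotype differed by a median of 0.081 (SerpinB2-/-) and 0.083 (wild type) on the log2 scale, against 0.141 to 0.163 between genotypes. All arrays lay on 1 slide, with the genotypes at different positions, so that position and genotype cannot be told apart. Of 24172 probes tested, 3746 passed an adjusted p of 0.05 (15.5%), with 5.66% higher and 9.84% lower in SerpinB2-/- cells. Higher probes were 36.5% of those calls, but 76.5% with median scaling, 47.3% with quantile normalization and 26.4% with scaling by detected probes. Median scaling moved the median change of all probes to 0.13, where it had been -0.004.

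All 16 member probes passed the filter on dim signals, the middle probe of Cdkn1a through the wild type arrays alone. In SerpinB2-/- cells 8 of the 16, from 5 genes, were lower and 2, from 2 genes, were higher. Thus 62.5% passed the threshold, against 15.5% of all probes. The lower ones belonged to Cdkn1a, Cdkn1c, Cdkn2a, Cdkn2b and Ccnd1, and the higher ones to Cdkn2c and Cdkn2d. The genotypes did not overlap for 14 member probes, 10 lower and 4 higher, where 64.5% of all probes did not overlap. The median change of the 16 was -0.32 on the log2 scale. With only probes detected on all 4 arrays, which leaves out the middle Cdkn1a probe, 15 member probes were tested. Of these 9 passed, 7 lower and 2 higher, beside 3964 of 23149 probes in all. The members were chosen with earlier results of these data known, so these shares are descriptions. Over all 24172 probes median scaling gave 5205 higher and 1595 lower calls. Among the member probes the balance of directions moved with the arrays and the scaling. There were 2 higher and 2 lower calls when SerpinB2-/- replicate 1 was left out, 0 higher and 6 lower when SerpinB2-/- replicate 2 was, and 4 higher and 7 lower with median scaling. The count of calls was 1 when either wild type replicate 1 or wild type replicate 2 was left out. The single call in both of these cases was Cdkn1c.

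**Figure D1:**
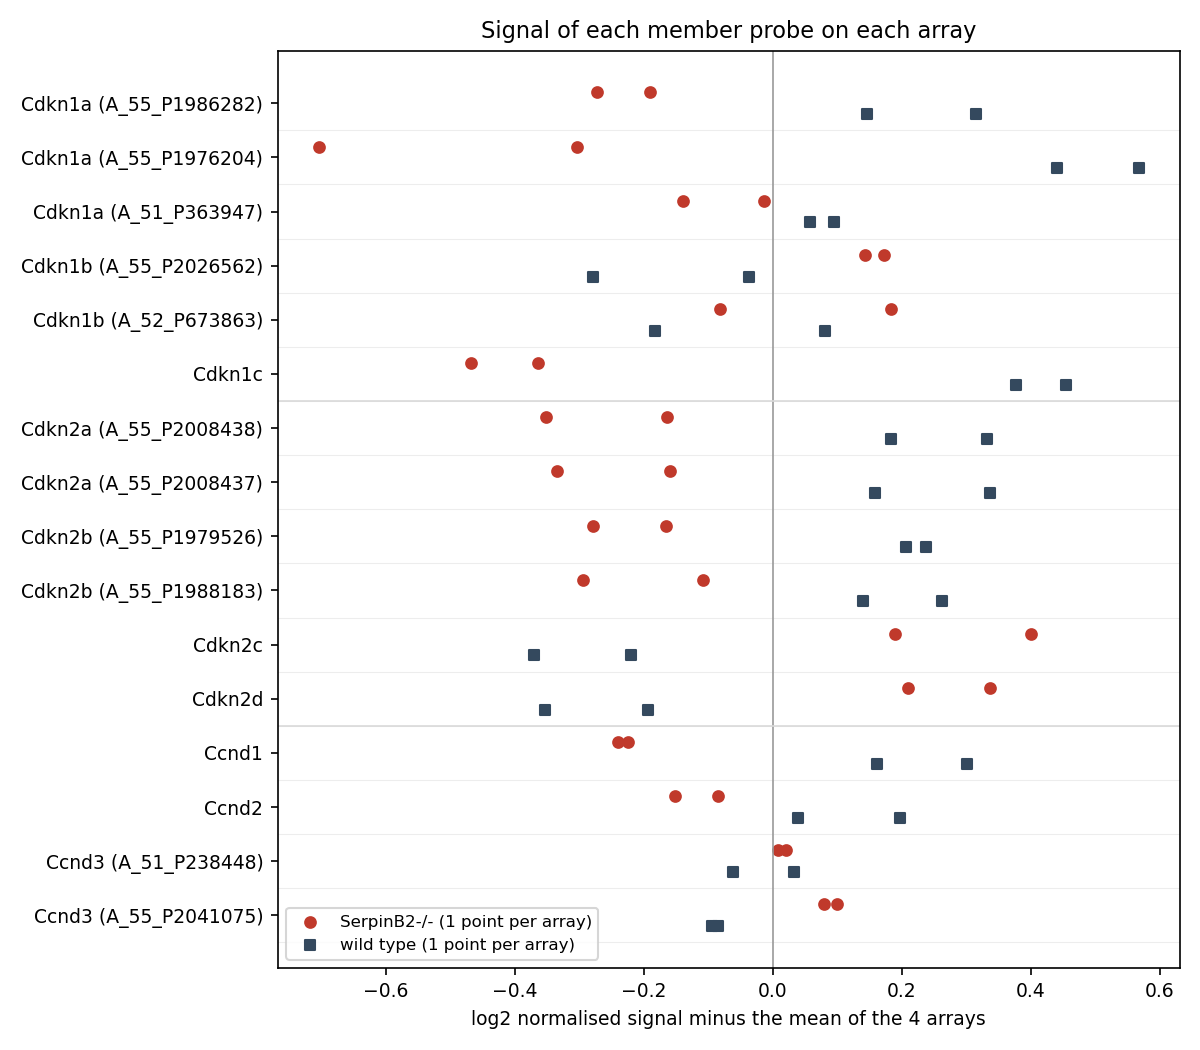
Log2 normalised signal of each member probe on each array, as the difference from the mean of the 4 arrays, with SerpinB2-/- samples as circles and wild type samples as squares. The samples overlap for 2 of the 16 probes, 1 of Cdkn1b and 1 of Ccnd3.

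Markers of other cell types differed in the same samples, and their part in the changes below was not tested. Of 11 measured endothelial markers 10 fell (median -1.26), with summed signals of 9110 and 11506 in SerpinB2-/- cells, against 16354 and 15840 in wild type cells. The 1 that did not pass, Kdr, differed by 0.05 at its brightest probe, and a further Kdr probe gave -1.23. The median was -0.94 with normexp, and 9 of 10 fell with only probes detected on all 4 arrays. Tek was the endothelial marker not above background. Without wild type replicate 1 or 2, 3 and 2 of these markers fell. Of 13 leukocyte markers 8 fell (median -0.50), with sums of 22798 and 21881 in SerpinB2-/- cells, against 28972 and 26813 in wild type cells. Of these sums Itgam made up 11025 and 11390 in SerpinB2-/- cells, against 12560.5 and 11329 in wild type cells, which overlapped. It did not pass at this brightest probe, and a further Itgam probe gave -0.81. Without wild type replicate 1 or 2, or SerpinB2-/- replicate 2, 2, 3 and 4 leukocyte markers fell. Fibroblast and pericyte markers included 2 of 10 that rose, Postn and Col3a1, and 0 that fell (median 0.30). Thy1 and Dcn, named after their values were seen, differed by -0.64 and -0.33 without passing, and 1 marker fell when either SerpinB2-/- array was left out. The sums of the 10 markers were 367740 and 426531 in SerpinB2-/- cells, against 350676 and 284724 in wild type cells, and 0 of them rose without wild type replicate 1 or 2, but 6 with median scaling. Of these sums Acta2 alone made up 186035 and 226592 in SerpinB2-/- cells, against 188768 and 145831 in wild type cells, which overlapped. Lum and Rgs5 were not above background. Tubular markers were measured for 12 of 16 genes, where Slc5a2 of the early proximal tubule and Umod, Slc12a1 and Slc12a3 of the loop of Henle and distal tubule were not above background. Of the 12, the epithelial genes Cdh1, Epcam, Cdh16 and Krt8 fell, by 0.79, 0.58, 0.51 and 0.29, and 0 rose. The sums of the 12 were 451114 and 473700 in SerpinB2-/- cells, against 568810 and 569362 in wild type cells. Of these sums Krt8 made up 163250 and 167965 in SerpinB2-/- cells, against 205977 and 199842 in wild type cells. Krt18, which did not pass, made up 208073 and 228874 in SerpinB2-/- cells, against 261008 and 251357 in wild type cells. Without SerpinB2-/- replicate 1 or 2, or wild type replicate 2, Cdh1 was the 1 tubular marker that fell in each case. Krt8 passed in 0 of the 4 fits without an array (adjusted p of at least 0.106), and Epcam and Cdh16 in 1 each. With median scaling 2 fell and 1 rose. Lrp2, Cubn, Aqp1 and the dim Slc34a1 of the proximal tubule were named after their values were seen. They differed by 0.01, 0.01, -0.01 and 0.12 at their brightest probes without passing, and a further Lrp2 probe gave -0.66. In such bulk cultures fewer cells of a type and less RNA per cell cannot be told apart.

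Among the Cip/Kip inhibitors Cdkn1c fell and Cdkn1a fell at 2 of its 3 probes, while Cdkn1b did not pass the threshold. Cdkn1c encodes p57, an inhibitor that marks cells leaving the cycle. Its probe, at chr7:150644753-150644812 on the minus strand (A_51_P339540), had normalised signals of 2766 and 2572 in SerpinB2-/- cells, against 4877 and 4623 in wild type cells. Both SerpinB2-/- samples lay below both wild type samples. The log2 change was -0.83 ± 0.07 (SE, n = 2 per genotype), 1.78-fold lower (adjusted p = 0.00787). It passed in 17 of 18 alternatives, every one that left out an array among them, with a range of -0.88 to -0.70. The exception was the fit that kept dim probes (adjusted p = 0.0834).

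Cdkn1a encodes p21. Its 5′-most probe had signals of 494 and 467 in SerpinB2-/- cells, against 701 and 624 in wild type cells. The middle probe was dim, with 30.9 and 23.4 in SerpinB2-/- cells, against 56.4 and 51.7 in wild type cells. At the 3′-most probe the signals were 22876 and 20959.9 in SerpinB2-/- cells, against 24020.1 and 24660 in wild type cells. At each probe both SerpinB2-/- samples lay below both wild type samples. The log2 change was -0.46 ± 0.08 at the 5′-most probe (adjusted p = 0.0280), -1.01 ± 0.14 at the middle probe (adjusted p = 0.0181) and -0.15 ± 0.07 at the 3′-most probe, which did not pass (adjusted p = 0.197). The middle probe was well above background in 25% of its spots on the second SerpinB2-/- array. With that array at its detection limit of 28.8 the change was -0.86, and with normexp background correction it was -0.33. Leaving out wild type replicate 1 or 2 ended its call (adjusted p = 0.0727 and 0.0578). At the 5′-most probe the call ended whichever array was left out, with adjusted p between 0.0521 and 0.0967, and with quantile normalization (adjusted p = 0.0538). Averaged over the 3 probes, with the dim middle probe at its full -1.01, Cdkn1a was at -0.54 (adjusted p = 0.0256).

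That the probes of Cdkn1a differ in the size of their change was known when their comparison was chosen, so the interaction of probe and genotype describes this difference and is no independent test of it. Over 4607 genes with 2 or more probes it gave F = 13.6 and an adjusted p of 0.0469 for Cdkn1a by limma's diffSplice, and 3.43% of all such genes lay under 0.05. The probes of Cdkn1a share the RNA of each array, so the test draws on the spread of probes, not on new samples. Against the other probes of the gene the middle probe differed by -0.70 (adjusted p = 0.0388), the 3′-most probe by 0.58 (adjusted p = 0.0643) and the 5′-most probe by 0.12 (adjusted p = 0.750). The value rests on the dim middle probe, and was not past the threshold with normexp correction (adjusted p = 0.374), with quantile normalization (adjusted p = 0.162), or without SerpinB2-/- replicate 2, wild type replicate 1 or wild type replicate 2 (adjusted p = 0.170, 0.346 and 0.161). Restricted to probes detected on all 4 arrays, which leaves out the middle probe, the remaining pair gave an adjusted p of 0.146. For Cdkn1b, Cdkn2a, Cdkn2b and Ccnd3 the probes of a gene did not differ past the threshold (adjusted p between 0.339 and 0.977).

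**Figure D2:**
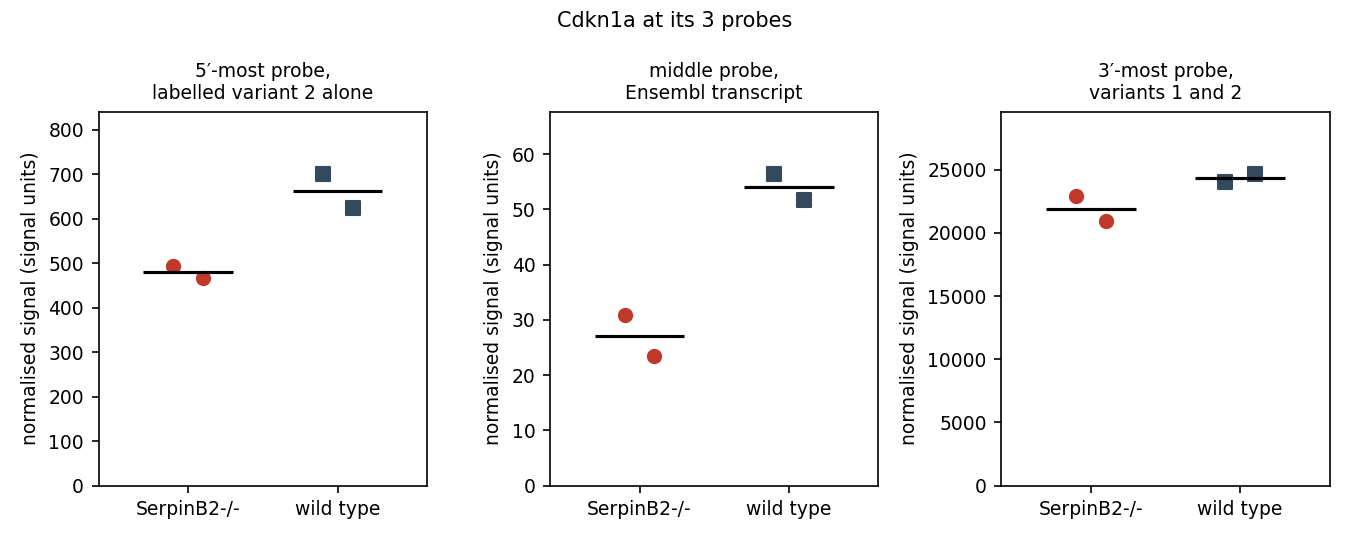
Normalised signal of the 3 Cdkn1a probes, 1 point per array and a bar at the mean of each genotype, with each linear axis starting at 0. The SerpinB2-/- samples lie below the wild type samples at each probe, with log2 changes of -0.46, -1.01 and -0.15 at the 5′-most, middle and 3′-most probes.

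Cdkn1b encodes p27, which is held in check mainly through its degradation. The probe annotated to its RefSeq transcript (A_55_P2026562, chr6:134875424-134875483, plus strand) had signals of 4275 and 4359 in SerpinB2-/- cells, against 3772 and 3191 in wild type cells. The genotypes did not overlap, and the change of 0.32 ± 0.10 did not pass the threshold (adjusted p = 0.0889). It passed with median scaling, at 0.45 (adjusted p = 0.0298), and with a trended fit (adjusted p = 0.0446). The further, dim probe (A_52_P673863, chr6:134873606-134873665) had 56.7 and 68.2 in SerpinB2-/- cells, against 63.6 and 52.9 in wild type cells, and the genotypes overlapped. Its change was 0.10 ± 0.13 (adjusted p = 0.624).

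Among the Ink4 inhibitors Cdkn2a and Cdkn2b fell at both of their probes, and Cdkn2c and Cdkn2d rose. Cdkn2a also encodes Arf, which stabilises p53, from an alternative first exon. Both of its probes are annotated to variants 1 and 2, so that transcripts for p16 and Arf were not told apart. The probe at chr4:88920543-88920602 on the minus strand (A_55_P2008438) had signals of 1159 and 1318 in SerpinB2-/- cells, against 1861 and 1678 in wild type cells. The probe at chr4:88920405-88920464 (A_55_P2008437) had 24159 and 27284 in SerpinB2-/- cells, against 38485 and 34008 in wild type cells. The genotypes did not overlap at either, and the changes of -0.52 ± 0.09 and -0.49 ± 0.10 were close to each other (adjusted p = 0.0299 and 0.0353). Both calls ended when SerpinB2-/- replicate 1 was left out (adjusted p = 0.0704 and 0.0880), and likewise for wild type replicate 1 (0.109 and 0.119) and wild type replicate 2 (0.0660 and 0.0648).

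Cdkn2b, which encodes p15 and is induced by TGF-beta in epithelial cells, lies beside Cdkn2a on chromosome 4. Its probe at chr4:88952720-88952779 on the minus strand (A_55_P1979526) had signals of 1635 and 1769 in SerpinB2-/- cells, against 2289 and 2339 in wild type cells. At chr4:88952276-88952335 (A_55_P1988183) the signals were 16617 and 18916 in SerpinB2-/- cells, against 24438 and 22457 in wild type cells. The SerpinB2-/- samples were again the lower ones at both probes, by 0.44 ± 0.07 and 0.40 ± 0.09 (adjusted p = 0.0201 and 0.0471). These calls also ended without SerpinB2-/- replicate 1 (adjusted p = 0.0602 and 0.126), wild type replicate 1 (0.0788 and 0.163) and wild type replicate 2 (0.0818 and 0.0957). The second probe passed in 9 of 18 alternatives, and with median scaling its change was -0.27 (adjusted p = 0.0660).

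Cdkn2c encodes p18. Its probe at chr4:109333508-109333567 on the minus strand (A_55_P2074796) had signals of 612 and 708 in SerpinB2-/- cells, against 461 and 415 in wild type cells. Cdkn2d encodes p19, the Ink4 protein that is distinct from the p19 name used for mouse Arf. Its probe at chr9:21092934-21092993 on the minus strand (A_55_P2022251) had 4727 and 5163 in SerpinB2-/- cells, against 3577 and 3199.99 in wild type cells. For both genes each SerpinB2-/- sample lay above each wild type sample. Cdkn2c was 1.51-fold higher (0.59 ± 0.10 on the log2 scale, adjusted p = 0.0254) and Cdkn2d 1.46-fold higher (0.55 ± 0.09, adjusted p = 0.0218). Without SerpinB2-/- replicate 2 these calls ended (adjusted p = 0.0564 and 0.0598), as they did without wild type replicate 1 (0.0633 and 0.0513) and wild type replicate 2 (0.0887 and 0.0760). The ratio of Cdkn2d to Cdkn2a was taken within each array, where scaling by 1 factor per array cancels. This ratio was -2.35 and -2.40 on the log2 scale in SerpinB2-/- cells, against -3.43 and -3.41 in wild type cells. The ratio of Cdkn2c to Cdkn2b was -4.76 and -4.74 in SerpinB2-/- cells, against -5.73 and -5.76 in wild type cells. Each pair set a gene that rose over one that fell, at their brightest probes, so the ratios restate the changes above. Signals of different probes have no common scale, so the ratios show by how much the genes changed relative to each other, 1.04 and 0.99, and not which was more abundant.

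**Figure D3:**
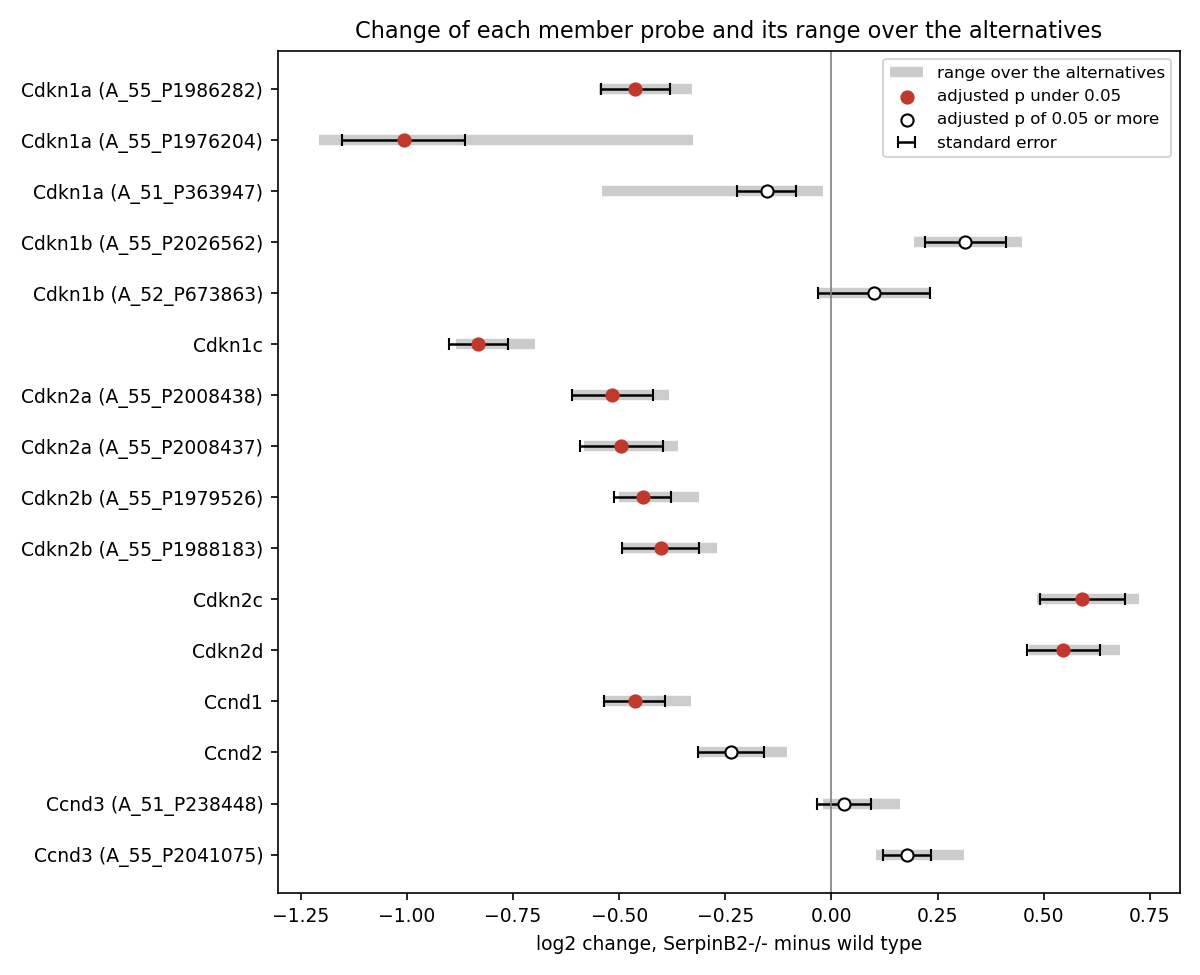
Log2 change, SerpinB2-/- minus wild type, of each member probe with its standard error, filled where the adjusted p was under 0.05, over a grey bar for the range of the alternatives. The bar of the middle Cdkn1a probe reaches from -1.21 to -0.33, and the bars of 1 probe of Cdkn1b and 1 of Ccnd3 cross 0.

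Of the D cyclins Ccnd1 fell, and Ccnd2 and Ccnd3 did not pass the threshold. Ccnd1, the D cyclin induced by growth factors in most epithelial cells, was measured at chr7:152116202-152116261 on the minus strand (A_66_P111562). Its signals were 108935 and 110164 in SerpinB2-/- cells, against 143951 and 158552 in wild type cells, with no overlap. The change was -0.46 ± 0.07 (adjusted p = 0.0209), and no spot was saturated. The call ended whichever array was left out, with adjusted p between 0.0509 and 0.0760. Ccnd2 at chr6:127098696-127098755 on the minus strand (A_52_P53906) had 20029 and 20963 in SerpinB2-/- cells, against 25502 and 22865 in wild type cells. These did not overlap, and the change of -0.24 ± 0.08 did not pass (adjusted p = 0.105). Ccnd3 was measured at chr17:47736267-47736326 (A_51_P238448) and chr17:47736579-47736638 (A_55_P2041075) on the plus strand. The first probe had 10663 and 10581 in SerpinB2-/- cells, against 10761 and 10076 in wild type cells, which overlapped. The second had 26834 and 27219 in SerpinB2-/- cells, against 23804 and 23951 in wild type cells, which did not overlap. The changes were 0.03 ± 0.06 (adjusted p = 0.781) and 0.18 ± 0.06 (adjusted p = 0.0974), and the second passed with median scaling, at 0.31 (adjusted p = 0.0240), and with a trended fit (adjusted p = 0.0447).

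The partners and targets of the members were described from lists, each gene by its brightest probe, beside 15.4% of 18411 genes that passed, 5.93% higher and 9.44% lower. Of 12 measured partner kinases and other cyclins 6 rose and 0 fell (median 0.28). Cdk2, the kinase inhibited by the Cip/Kip proteins, had 784 and 831 in SerpinB2-/- cells, against 472 and 548 in wild type cells, a change of 0.67 ± 0.09. Ccna2, the S-phase cyclin, rose by 0.66 ± 0.07, and the mitotic pair Ccnb1 and Cdk1 by 0.59 ± 0.06 and 0.59 ± 0.08. The lowest change among further probes was 0.40 for Ccnb1 and 0.33 for Cdk1. Cdk4 and Cdk6, named here as the partners of the D cyclins after their values were seen, differed by 0.03 ± 0.06 and -0.14 ± 0.06 (adjusted p = 0.777 and 0.179). Without wild type replicate 1 or 2 the count was 2, and with median scaling it was 9.

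Of 19 pocket proteins, E2F factors and DREAM subunits 9 rose and 0 fell (median 0.30). Among them are the pocket proteins, on which CDK4 and CDK2 act, and E2F factors that pocket proteins release. E2f8 and E2f7, the atypical repressors of the E2F family, rose by 0.65 ± 0.09 and 0.59 ± 0.07. The E2F partner Tfdp1 rose by 0.54 ± 0.06 and Mybl2, which turns on mitotic genes, by 0.51 ± 0.11. Further probes gave 0.19 for E2f7, 0.44 for Tfdp1 and 0.73 for Mybl2. With 1 array left out Mybl2 ranged from 0.39 to 0.63. Rb1, the retinoblastoma gene, also named after its value was seen, differed by 0.15 ± 0.06 (adjusted p = 0.146). The count was 0 and 3 when wild type replicate 1 or 2 was left out, 6 when SerpinB2-/- replicate 1 was, and 14 with median scaling. All 24 S-phase and mitosis genes rose (median 0.52), with the mitotic kinase Aurkb at 80.9 and 81.2 in SerpinB2-/- cells, against 41.9 and 37.6 in wild type cells. Its change was 1.03 ± 0.08, and 0.46 with normexp. The origin licensing factor Cdc6 rose by 0.85 ± 0.10, thymidine kinase Tk1 by 0.79 ± 0.07 and the checkpoint kinase Ttk by 0.76 ± 0.09 (0.49 with normexp). A further probe gave 0.83 for Cdc6 and 0.61 for Tk1. Fewer of the 24 passed when an array was left out: 6 for wild type replicate 1, 9 for wild type replicate 2, and 16 and 18 for SerpinB2-/- replicate 1 and 2. Of the 10 measured fibroblast and pericyte markers, Postn and Col3a1 were higher in the same samples and the other 8 did not pass (median 0.30). Whether cell types had a part in the rise of these genes was not tested.

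**Figure D4:**
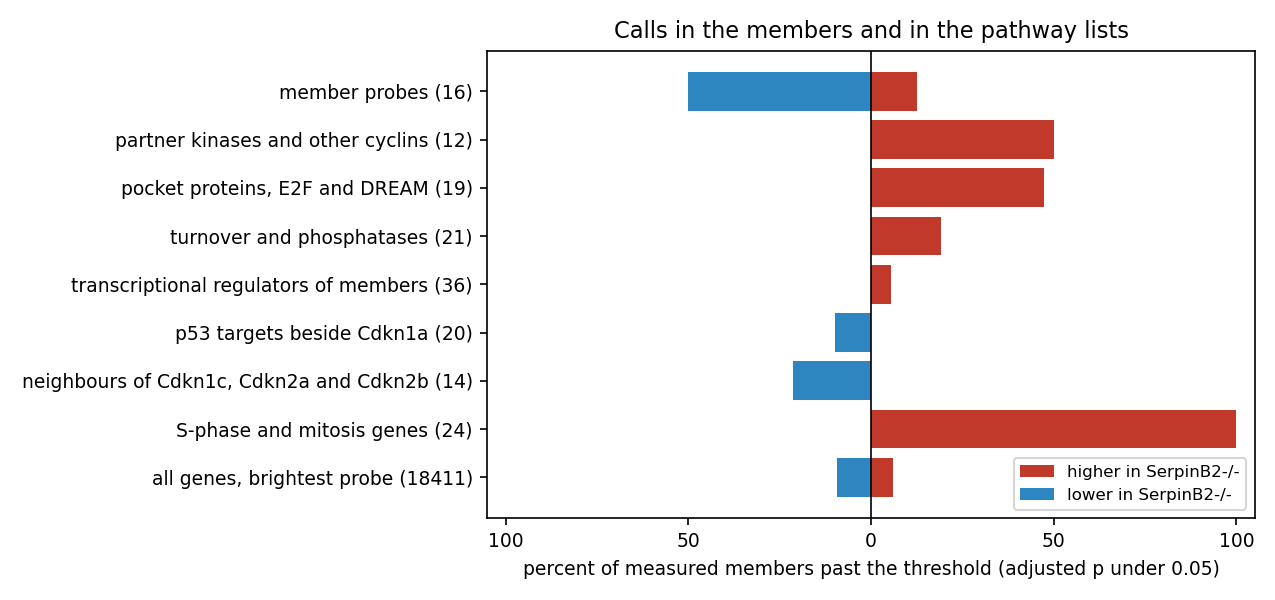
Percent of the measured probes or genes of each list that passed an adjusted p of 0.05, higher in SerpinB2-/- cells to the right of 0 and lower to the left, with the number measured in brackets. All 24 S-phase and mitosis genes were higher, while 8 of the 16 member probes were lower and 2 higher. Members are counted by probe, but the lists and all genes by the brightest probe of each gene. In a fit of brightest probes only, 4 of 10 members were lower and 2 higher.

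Genes for the turnover of the members and for phosphatases and kinases that act on cyclin-dependent kinases rose in 4 of 21 cases, with 0 lower (median 0.05). Fbxo5, which restrains the anaphase-promoting complex, rose by 0.69 ± 0.10, Pkmyt1, which phosphorylates CDK1, by 0.57 ± 0.07, Skp2, the ubiquitin ligase subunit that targets p27, by 0.55 ± 0.09 and Cks2, a CDK-binding subunit, by 0.28 ± 0.06. The call of Cks2 ended whichever array was left out (adjusted p of at least 0.104), and that of Skp2 in 3 of 4 such fits (adjusted p of up to 0.0691). The count was 0 when wild type replicate 1 was left out, 2 when any other single array was, and 8 with median scaling. Of 36 transcriptional regulators of the members 2 rose and 0 fell (median 0.08), a share of 5.56%, below that of all genes. The 2 were the differentiation inhibitor Id2 (0.38 ± 0.08) and Suz12, a Polycomb subunit (0.30 ± 0.06). These 2 calls ended whichever array was left out (adjusted p of at least 0.0620), and 12 regulators rose with median scaling. Of 20 p53 targets beside Cdkn1a 2 fell and 0 rose (median -0.07, and 0.06 with median scaling, where 1 fell and 2 rose). Thus 10% were lower, near the 9.44% of all genes that were lower. The desmosomal Perp had 15190 and 16716 in SerpinB2-/- cells, against 27732 and 25714 in wild type cells, and fell by 0.74 ± 0.08. The stress gene Sesn2 fell by 0.37 ± 0.06, a call that ended whichever array was left out (adjusted p of at least 0.0637). Trp53 itself, named after its value was seen, differed by 0.14 ± 0.11 (adjusted p = 0.409).

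Cdkn1c lies on mouse chromosome 7 in an imprinted domain, where the non-coding RNA Kcnq1ot1 from the paternal copy silences neighbouring genes, Cdkn1c, Phlda2 and Slc22a18 among them. Of 12 measured neighbours on that chromosome 3 fell and 0 rose (median -0.14). Kcnq1, a potassium channel, had 464 and 387 in SerpinB2-/- cells, against 848 and 1062 in wild type cells, and fell by 1.16 ± 0.14 (adjusted p = 0.0136). Slc22a18, a transporter and the next gene to Cdkn1c in the RefSeq table, had 1137 and 1002 in SerpinB2-/- cells, against 1613 and 1838 in wild type cells, and fell by 0.69 ± 0.10 (adjusted p = 0.0184). Phlda2, the gene after it, had 49.8 and 50.9 in SerpinB2-/- cells, against 72.9 and 74.3 in wild type cells. It fell by 0.55 ± 0.06 (adjusted p = 0.0106) but did not pass with normexp, at -0.22 (adjusted p = 0.112). Kcnq1 passed whichever array was left out, while leaving out wild type replicate 2 ended the calls of Slc22a18 (adjusted p = 0.0646) and Phlda2 (adjusted p = 0.0511). Kcnq1ot1, named after its value was seen, had 287 and 247 in SerpinB2-/- cells, against 261 and 294 in wild type cells, which overlapped (-0.05 ± 0.10, adjusted p = 0.744), and a further probe gave -0.26. The other neighbours differed by -0.48 to 0.21 without passing. With median scaling 2 genes of the neighbour list rose beside the 3 that fell. Beside Cdkn2a and Cdkn2b on chromosome 4, Mtap and Ifna1 differed by 0.16 ± 0.07 and -0.16 ± 0.07 and did not pass (adjusted p = 0.186 and 0.196).

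**Figure D5:**
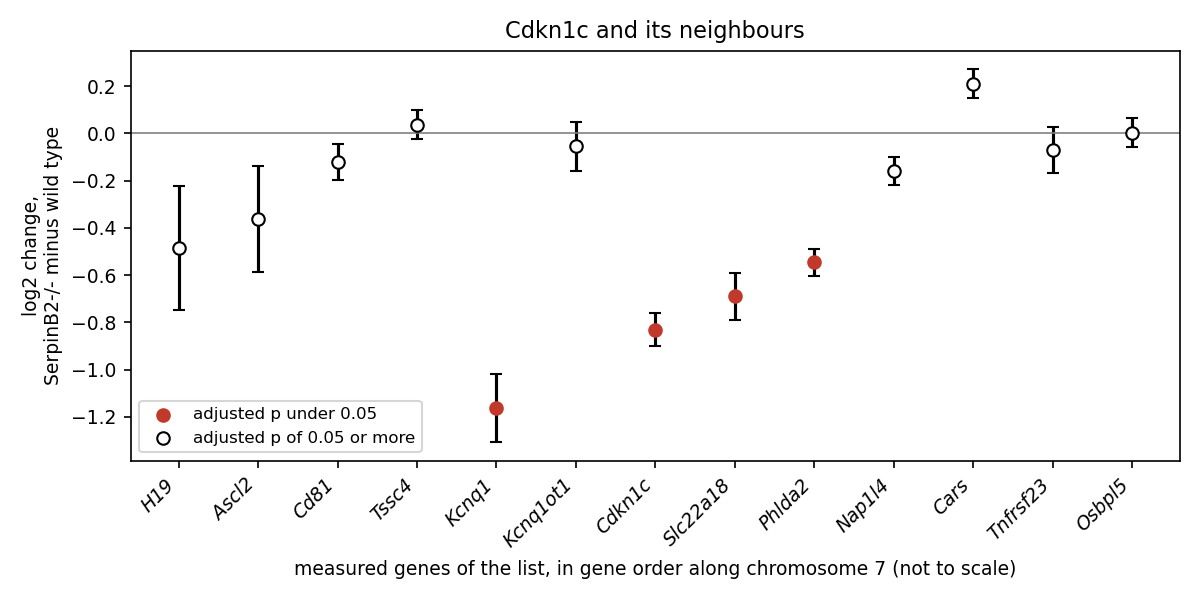
Log2 change, SerpinB2-/- minus wild type, with its standard error, of Cdkn1c and its 12 measured neighbours in gene order along chromosome 7, filled where the adjusted p was under 0.05. Kcnq1, Cdkn1c, Slc22a18 and Phlda2 lie between -1.16 and -0.55, and Kcnq1ot1 among them at -0.05.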

How the data were processed

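Gene expression was measured in 4 samples with one-colour Agilent arrays, from 150 ng of total RNA labelled with Cy3, per the labels. Per the file headers and the submitters' processing notes, the deposited intensity values were made with Agilent Feature Extraction 10.7.3.1, which subtracts background and replaces the values of dim spots with surrogates. Samples were grouped by their genotype label. Control spots (17263) and spots flagged as outliers were left out, and the mean was taken over the 4 spots that carry a probe. From each array its 75th percentile of log2 signal was subtracted. Probes entered the fit where over 50% of their spots exceeded background, by the scanner's flag, on both arrays of at least 1 genotype (24172 of 39429 probes). SerpinB2-/- was compared with wild type in limma 3.58.1 (R 4.3.3, lmFit, eBayes without trend, and diffSplice for the interaction of probe and genotype), with Benjamini-Hochberg adjustment over all probes or genes and a threshold of 0.05. The steps were tested on simulated data. The authors' deposited value table, with a 75th percentile of 1500, a floor of 4 and a median of 68 and 71 for SerpinB2-/- and 76 and 77 for wild type, is on a linear intensity scale. Between 94.9% and 96.8% of probes detected on all arrays followed the scanner signal within 5% of 1 factor per array, and its scaling and centring are not described in the sources used here. It served as an alternative. An "at least" fold sets the bright genotype's mean against, per dim array, whichever is higher: the probe itself or the dimmest probe flagged above background.

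Every probe of the 10 members was named. In each list a gene stood by its brightest probe, and up to 4 genes past the threshold with the largest change were named, with exceptions stated in the text. The members and lists were chosen with earlier results of these data known, and the promoter motifs with the sequences in view. A list of podocyte markers is not reported here. Coordinates of probes are the files' (mm9), those of promoters RefSeq's (GRCm38.p6). The alternatives were normexp with an offset of 50, quantile normalization, other scalings, the table of the authors, changed filters on dim probes, 1 value per gene, other averaging of spots, trended or robust moderation, the replicate number as a block, and each array left out. The number of arrays limits the precision.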

Additional observations from a re-analysis of the deposited data

How the results depend on the processing

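The count of 3746 probes past the threshold was 6800 with median scaling, 1 without a filter on dim probes (limma, 7509 at an unadjusted p under 0.05), 2687 with the replicate block and 978 to 2256 with 1 array left out. Of the 10 member calls 0 were left without that filter (11 at an unadjusted p under 0.05), 6 with the brightest probe of each gene only, and 1 to 6 with 1 array left out. When an array is left out, its genotype's other sample is assumed to vary like the remaining pair. The 1 gene with a probe-by-genotype difference became 0 with normexp (0 at an unadjusted p under 0.05). It became 0 with quantile normalization, median scaling, the authors' deposited table, no filter on dim probes, only probes detected on all 4 arrays, the median of the spots, outlier spots kept and the replicate block (1 at an unadjusted p under 0.05 in each), and 0 to 1 with 1 array left out. Directions turned for 2 probes that had not passed. Ccnd3 A_51_P238448 was at -0.021 with quantile normalization, -0.010 with scaling by detected probes, and -0.019 to 0.076 with 1 array left out. Cdkn1b A_52_P673863 was at -0.032 without SerpinB2-/- replicate 2 and -0.031 without wild type replicate 2, in a range of -0.032 to 0.23 with 1 array left out. The replicate block left 9 member calls and ended that of Cdkn2b A_55_P1988183 (adjusted p = 0.0667). Samples with the same number deviated together with a correlation of 0.21 over probes, and no label says that the numbers pair them.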
